A study of Drosophila melanogaster with 5 samples.

Results

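The seminal fluid genes of *D. melanogaster* that carry the names Acp (accessory gland protein) or Sfp (seminal fluid protein) were compared between males that developed in a deep underground low-background laboratory (LB-flies) and males that developed in a ground laboratory (NB-flies). The members were all RefSeq transcripts whose current gene symbol begins with Acp or Sfp followed by a cytological position, apart from Acp65Aa, a cuticle gene that shares the prefix. This rule gave 65 transcripts of 45 genes, 17 Acp and 28 Sfp genes, among the 34111 transcripts of the series. The question of the series is which transcripts differ between flies kept under low and under normal background radiation. RNA was taken from adult flies, 3 days old by the labels, of the wild-type line Oregon (strain Oregon-R in the study's methods), and the sequences of the messenger RNA were read. There were 3 LB libraries (low background radiation) and 2 NB libraries (normal background radiation, the control), each made from a pool of whole males of 1 vial by the study's methods. Both groups were raised in the dark on the same medium and at the same temperature, and they differed in the laboratory as a whole, so that radiation cannot be told apart from the other conditions of the underground chamber.

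Seminal fluid is made mainly in the paired accessory glands of the male, whose secretory cells produce large amounts of small secreted proteins, and to a lesser extent in the ejaculatory duct and bulb. These proteins are passed to the female with the sperm, and some of them are known to act on ovulation, sperm storage and the activity of proteases in the mated female. In RNA of whole males they are a readout of the reproductive tract, and in such bulk samples fewer gland cells and less RNA per cell cannot be told apart.

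The libraries held 23027411 to 26036113 counted reads each, and levels are given as CPM, the counts scaled to a common library size after TMM normalization. The smallest level taken as detected, 3 counts, corresponds to between 0.115 CPM in LB replicate 1 and 0.136 CPM in LB replicate 2. LB replicate 1 stood apart from the other libraries in the members, which was seen only after the values were examined, and the results are therefore given with and without it. The antimicrobial peptide genes AttA, AttC, CecA1 and DptB, chosen after their values were seen, were highest in that library. AttA, an attacin, had 1937, 131 and 192 CPM in LB-flies, against 46.7 and 3.57 CPM in NB-flies. In the same library Npc1b, a sterol transport gene of the midgut, was low, with 2.02, 23.2 and 14.5 CPM in LB-flies, against 25.8 and 15.7 CPM in NB-flies. The antennal gene a10 was low in LB replicate 3, with 153, 32.1 and 0.885 CPM in LB-flies, against 34.0 and 37.4 CPM in NB-flies. What part these differences between libraries have in the results was not tested.

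The members were small genes with few exons, and they were spread unevenly over the chromosomes. Their median span was 515 bp, against 2159 bp for all protein-coding genes, and 14 had 1 exon, 26 had 2 exons and 5 had 3 or more (gene models of BDGP6.54, in coordinates of dm6, the genome of the counts). Chromosome arm 2L held 23 of the 45 genes (51.1%), against 19.0% of all protein-coding genes, and the X chromosome held 0, against 15.7%. Several members lie side by side as clusters. Sfp24Ba, Sfp24Bd, Sfp24Bb and Sfp24Bc follow each other within 2605 bp (2L:3667977-3670581, minus strand), Acp53C14a, Acp53C14b, Acp53Ea and Acp53C14c lie at 2R:16747834-16751495, and Sfp33A4, Sfp33A2 and Sfp33A3 at 2L:11837243-11840329. Neighbours with similar sequences may share reads, and reads that fit several of them could be split or lost. In addition, 17 of the 45 genes overlap the span of another gene, introns included. Whether exons overlap was not examined. The kit marked the strand of the RNA, but the sources used here do not say whether the counting used it. Counts of these 17 may therefore be affected.

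Counts were found for 45 of the 65 transcripts, and 43 transcripts of 42 genes passed the filter of at least 10 counts summed over the libraries. The genes without a tested transcript were Acp26Ab with 2 counts in all libraries together, Sfp24F with 3 and Sfp36F with 0, and each of them has several transcripts. HTSeq set aside between 53.9% and 56.5% of the records of a library as ambiguous, overlapping more than 1 feature, and these entered no count. In these 3 genes 51, 14 and 33 exon bases belong to 1 transcript alone, but such bases do not set the count, since Acp76A had 6582 counts with 3 of them and Acp32CD had 7657 counts with 4. How reads of shared exons were counted is not given in the sources used here, so the low counts of the 3 genes do not show that they were silent. The tested members with the fewest counts were Sfp35C and Sfp38D with 89 each. The 26 genes with 1 transcript cannot lose reads to another transcript of the same gene, and only for them were levels compared between genes, as mean CPM per kb of exon.

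Per length, Sfp87B had the highest mean level of these 26 genes, 9544 CPM per kb over the 5 libraries. Acp95EF followed with 5969 CPM per kb, then Acp98AB with 3867, Acp54A1 with 1931, Acp53Ea with 1742 and Sfp24Bb with 1713 CPM per kb. At the low end Sfp84E had 1.48 CPM per kb, so that the levels of members spanned more than 3 orders of magnitude. Together the members had 4680.5, 14434 and 15596 CPM in LB replicates 1, 2 and 3, against 10905 and 10083 CPM in NB replicates 1 and 2. The 3 LB libraries lay on both sides of the NB libraries, with a mean of 11570.0 ± 5995 CPM (SD, n = 3) in LB-flies and 10494 ± 581 CPM (SD, n = 2) in NB-flies.

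**Figure D1:**
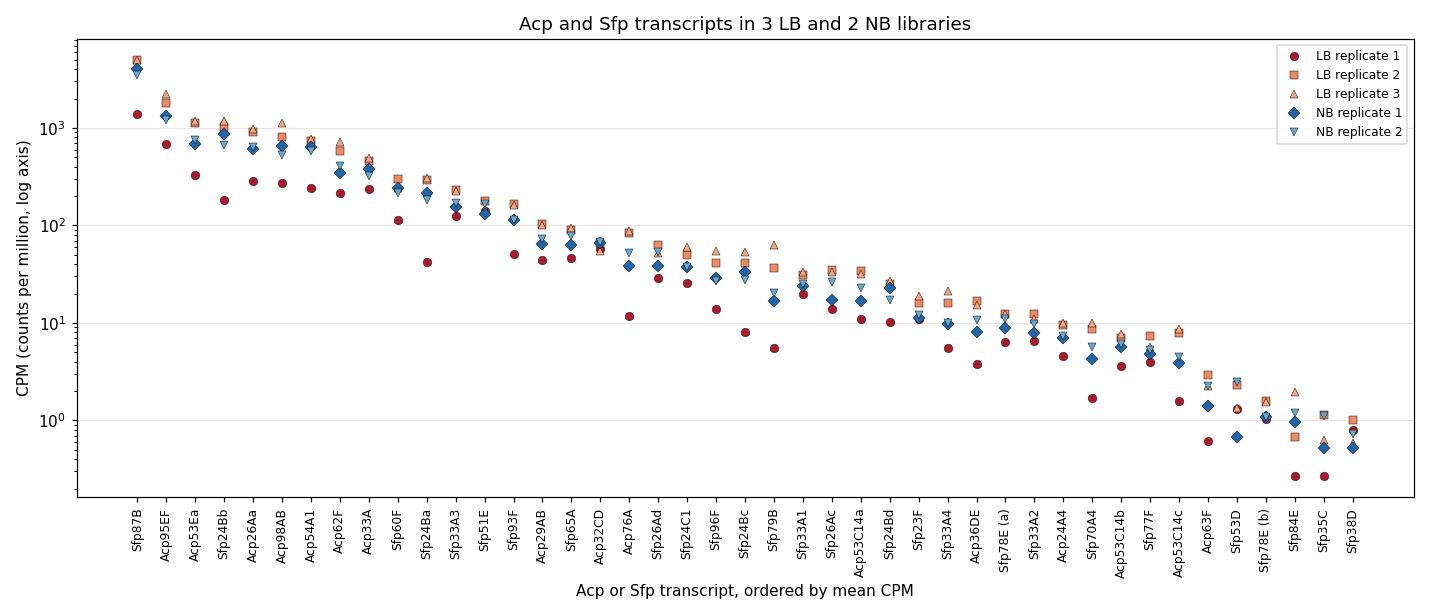
Level in CPM (log axis, not corrected for transcript length) of the 43 tested Acp and Sfp transcripts, ordered by mean CPM, with 1 point for each of the 3 LB and 2 NB libraries. Sfp78E (a) and (b) are the transcripts of that gene with the higher and the lower CPM. LB replicate 1 is the lowest point in 39 of the 43 transcripts, against 22.5% of all transcripts.

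No member passed the test of LB-flies against NB-flies over all libraries. The quasi-likelihood test of edgeR with Benjamini-Hochberg adjustment over 17337 transcripts called 0 of the 43 members, and it called 0.0% of all transcripts. In edgeR 0 of the 43 members had an unadjusted p under 0.05, against 7.57% of all transcripts. That share was made up of 3.91% with a raised and 3.66% with a reduced level in LB-flies. DESeq2 and limma-voom also gave 0 members at this threshold. For these tools the share over all transcripts was not determined, so their 0 has no background beside it. DESeq2 called 0.444% of all transcripts and none of the members. The smallest adjusted p of a member was 0.682 with edgeR, and the smallest unadjusted p was 0.155, both for Sfp23F. With 3 against 2 libraries an exact permutation test of a single value could not fall below 0.1, and it was not used.

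The fold changes of the members were mostly above 0, but they were small beside their errors. The log2 fold change of LB-flies over NB-flies was above 0 in 38 of the 43 members, against 47.4% of all transcripts, with a median of 0.18, against a median of -0.02 for all transcripts. It lay between -0.29 and 0.91. The sign of the median turned in fits with a replicate block, which leave out 1 LB library other than LB replicate 1, with medians of -0.18 and -0.11. The median standard error was 0.47 in the members and 0.29 in all transcripts, so that the errors of the members were the larger at the median. In 0 of the 43 members were all 3 LB libraries above both NB libraries, against 14.8% of all transcripts, and in 1 member, Acp32CD, all 3 were below, against 13.1%.

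LB replicate 1 lay apart from the other libraries in most members. It was the lowest of the 5 libraries in 39 of the 43 members, against 22.5% of all transcripts, and at most 0.5 times the lowest of the other 4 libraries in 15 members, against 2.47%. The other libraries exceeded it by a median of 1.69-fold, taking the lowest of them for each member, and by up to 4.37-fold in Sfp24Ba. LB replicates 2 and 3 stood on the other side of the controls. Both were above both NB libraries in 34 of the 43 members, against 22.2% of all transcripts. The highest of the 5 libraries was LB replicate 3 in 25 members, against 22.1% of all transcripts, LB replicate 2 in 16, against 15.3%, and NB replicate 2 in 2, against 21.9%. It was LB replicate 1 or NB replicate 1 in 0 members, against 22.8% and 17.9% of all transcripts. Relative to the mean of NB-flies, the median log2 ratio of the members was -0.87 in LB replicate 1, 0.52 in LB replicate 2 and 0.53 in LB replicate 3, while the medians of all transcripts with counts in every library lay between -0.05 and -0.00 in these 3 libraries. Among the 26 members of genes with 1 transcript, LB replicate 1 was lowest in 25 and at most 0.5 times the lowest other library in 10. The 2 NB libraries were closer to each other, with a median difference of 0.24 on the log2 scale.

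**Figure D2:**
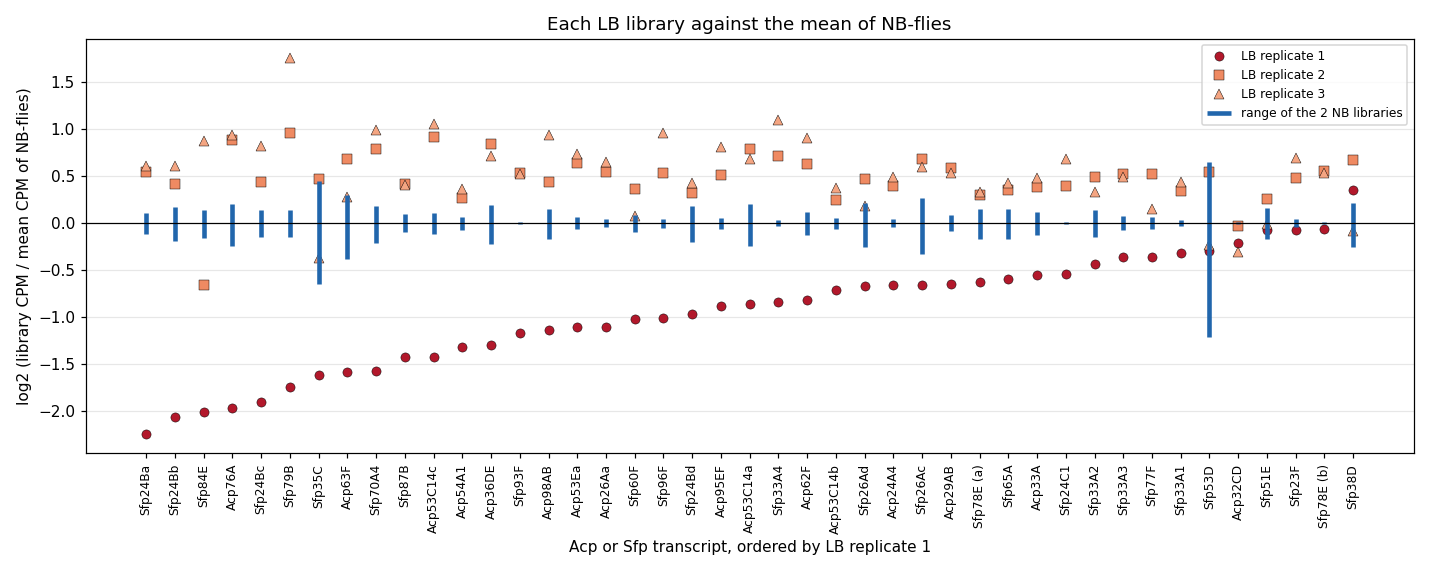
Log2 ratio of each LB library to the mean CPM of NB-flies for the 43 tested transcripts, ordered by LB replicate 1, with the range of the 2 NB libraries as a vertical bar. LB replicate 1 is the lowest of the 5 libraries in 39 transcripts, against 22.5% of all transcripts. LB replicates 2 and 3 are both above both NB libraries in 34, against 22.2% of all transcripts.

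Of the members with a studied role, Acp26Aa, Acp36DE and Acp29AB act on egg laying and on sperm in the female. Acp26Aa encodes ovulin, which stimulates ovulation, and is a gene of 2 exons at 2L:5892883-5893896 (minus strand). It had 288, 904 and 975 CPM in LB replicates 1, 2 and 3, against 604 and 639 CPM in NB replicates 1 and 2. LB replicate 1 was thus below and the other LB libraries above both controls, and the log2 fold change was 0.22 ± 0.49 (SE) with an adjusted p of 0.918 in edgeR. Acp36DE, a large glycoprotein needed for sperm storage, had 3.82, 16.9 and 15.5 CPM in LB-flies, against 8.06 and 10.7 CPM in NB-flies, with LB replicate 1 again below and the others above both controls. The gene has several transcripts, and how reads of shared exons were counted is not given, so its count may hold only a part of its reads. Its log2 fold change was 0.36 ± 0.59 (SE), with an adjusted p of 0.885 in edgeR. Acp29AB, a lectin that takes part in keeping sperm in storage, had 44.2, 104 and 100.4 CPM in LB-flies, against 65.3 and 73.5 CPM in NB-flies. Its log2 fold change was 0.26 ± 0.36 (SE), with an adjusted p of 0.862 in edgeR.

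Protease inhibitors form a further group of seminal fluid proteins. Acp62F, similar to trypsin inhibitors, had 215, 587 and 712 CPM in LB-flies, against 347 and 411 CPM in NB-flies. Here too the LB libraries fell on both sides of the controls, and the log2 fold change was 0.41 ± 0.47 (SE) (adjusted p = 0.827, edgeR). Acp76A, a serpin, had one of the widest ranges among the members with a mean of at least 100 counts, 7.50-fold between the highest and the lowest library. It had 11.7, 84.2 and 87.9 CPM in LB-flies, against 38.7 and 52.8 CPM in NB-flies, with LB replicate 1 below and the others above both controls. The log2 fold change of Acp76A was 0.42 ± 0.76 (SE), larger in size than in most members but smaller than its standard error, and the adjusted p was 0.896 in edgeR.

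Sfp24Ba and Sfp24Bb of the Sfp24B cluster showed the deepest dip of all members in LB replicate 1. Sfp24Ba had 42.2, 293 and 306 CPM in LB-flies, against 216 and 185 CPM in NB-flies, and Sfp24Bb had 184, 1023 and 1167 CPM in LB-flies, against 861 and 672 CPM in NB-flies. In both genes LB replicate 1 was far below the NB libraries, and LB replicates 2 and 3 were above them. The log2 fold change was 0.09 ± 0.74 (SE) for Sfp24Ba (adjusted p = 0.982, edgeR) and 0.05 ± 0.69 (SE) for Sfp24Bb (adjusted p = 0.992, edgeR). The other 2 genes of the cluster had 8.13, 41.2 and 53.9 CPM in LB-flies, against 33.4 and 27.4 CPM in NB-flies (Sfp24Bc) and 10.3, 25.0 and 27.0 CPM in LB-flies, against 22.7 and 17.4 CPM in NB-flies (Sfp24Bd). Over the 4 genes the log2 ratio of LB replicate 1 to the mean of NB-flies lay between -2.25 and -0.96, while the log2 fold changes of the group comparison lay between 0.05 and 0.18. The genes overlap Drgx on the opposite strand.

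In the Acp53 cluster the ratios of LB replicate 1 to the mean of NB-flies were between -1.42 and -0.71 on the log2 scale. Acp53Ea, the only gene of this cluster with 1 transcript, had 332, 1119 and 1190.2 CPM in LB replicates 1, 2 and 3, against 687 and 747 CPM in NB replicates 1 and 2. Its log2 fold change was 0.30 ± 0.51 (SE) with an adjusted p of 0.890 in edgeR. In the Sfp33A2 to Sfp33A4 cluster, which overlaps Pde1c on the opposite strand, the dip was smaller, between -0.84 and -0.37. Sfp33A3 had 125, 231 and 227 CPM in LB-flies, against 153 and 169.5 CPM in NB-flies, and Sfp33A4 had 5.54, 16.2 and 21.1 CPM in LB-flies, against 9.67 and 10.1 CPM in NB-flies. These were among the 5 members with the smallest p of those with a fold change above 0, with a log2 fold change of 0.27 ± 0.28 (SE) for Sfp33A3 (adjusted p = 0.803, edgeR) and 0.53 ± 0.52 (SE) for Sfp33A4 (adjusted p = 0.793, edgeR).

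The member with the highest level per length, Sfp87B (3R:12273126-12273521, plus strand), is a gene of 1 exon within the span of svp on the same strand. Whether it overlaps exons of svp, which could affect its counts, was not examined. Sfp87B had 1401, 5016 and 4967 CPM in LB replicates 1, 2 and 3, against 4007 and 3506 CPM in NB replicates 1 and 2. The LB libraries fell on both sides of the NB libraries, and the log2 fold change was 0.01 ± 0.52 (SE) with an adjusted p of 0.996 in edgeR. Acp95EF (3R:24228975-24229279, plus strand) had 686, 1810.2 and 2225 CPM in LB-flies, against 1318 and 1214 CPM in NB-flies. Acp98AB (3R:27694883-27695057, plus strand) had 269.9, 799 and 1131 CPM in LB-flies, against 659 and 526 CPM in NB-flies. Both had LB replicate 1 lowest and LB replicate 3 highest, and their log2 fold changes were 0.31 ± 0.46 (SE) for Acp95EF (adjusted p = 0.868, edgeR) and 0.31 ± 0.54 (SE) for Acp98AB (adjusted p = 0.893, edgeR). Acp54A1, Acp33A and Sfp60F, also among the 10 transcripts with the highest mean CPM, had values of -0.05 ± 0.47 (SE), 0.17 ± 0.31 (SE) and -0.08 ± 0.38 (SE) on the same scale, in this order, and their adjusted p values in edgeR were 0.984, 0.896 and 0.963. In Acp54A1 the libraries had 242, 728 and 776 CPM in LB-flies, against 634 and 575 CPM in NB-flies, and in Acp33A they had 239, 459 and 490.4 CPM in LB-flies, against 382 and 322 CPM in NB-flies. Sfp60F had 114, 297 and 243 CPM in LB-flies, against 245 and 217 CPM in NB-flies. None of the 3 had LB libraries on only 1 side of the controls, and the smallest adjusted p of these 10 transcripts was 0.827 in edgeR, for Acp62F.

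Sfp79B had both the largest log2 fold change, 0.91 ± 0.85 (SE), and the widest range, 11.3-fold between its highest and its lowest library. It had 5.58, 36.3 and 63.1 CPM in LB replicates 1, 2 and 3, against 16.8 and 20.5 CPM in NB replicates 1 and 2. The spread among LB-flies thus exceeded the distance between the groups, and the adjusted p was 0.786 in edgeR. Sfp23F, the member with the smallest p, had 11.1, 16.2 and 18.8 CPM in LB-flies, against 11.3 and 12.0 CPM in NB-flies. Here LB replicate 1 was only just below the NB libraries, and the log2 fold change was 0.40 ± 0.25 (SE) with an adjusted p of 0.682 in edgeR. The transcript of Sfp78E with the lower CPM had 1.03, 1.59 and 1.56 CPM in LB-flies, against 1.09 and 1.07 CPM in NB-flies, with a log2 fold change of 0.36 ± 0.31 (SE) and an adjusted p of 0.762 in edgeR.

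LB replicate 1 was not the lowest library in 4 members, Acp32CD, Sfp51E, Sfp53D and Sfp38D. Acp32CD had 58.0, 65.4 and 54.3 CPM in LB replicates 1, 2 and 3, against 66.3 and 67.7 CPM in NB replicates 1 and 2, which were the closest values of all named members, and its log2 fold change was -0.18 ± 0.13 (SE) (adjusted p = 0.720, edgeR). Only 4 of the 886 exon bases of Acp32CD belong to 1 transcript alone, and the gene overlaps Samuel on the opposite strand. Sfp51E had 142, 178 and 148 CPM in LB-flies, against 132 and 166 CPM in NB-flies, all within a narrow range. Sfp53D and Sfp38D rested on few reads, 199 and 89 counts over all libraries. Sfp53D had 1.30, 2.32 and 1.35 CPM in LB-flies, against 0.685 and 2.49 CPM in NB-flies, and Sfp38D had 0.802, 0.999 and 0.59 CPM in LB-flies, against 0.524 and 0.729 CPM in NB-flies. Sfp35C and Sfp84E, with 89 and 124 counts over all libraries, had log2 fold changes below 0, as did Acp32CD, Sfp60F and Acp54A1. The values were -0.29 ± 0.64 (SE) for Sfp35C (adjusted p = 0.916, edgeR) and -0.15 ± 0.74 (SE) for Sfp84E (adjusted p = 0.966, edgeR). Sfp35C had 0.267, 1.14 and 0.632 CPM in LB-flies, against 0.524 and 1.11 CPM in NB-flies, and Sfp84E had 0.267, 0.681 and 1.98 CPM in LB-flies, against 0.967 and 1.19 CPM in NB-flies.

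The other 16 tested members had the same order of libraries in most cases. LB replicate 1 was the lowest library in 16 of the 16, against 22.5% of all transcripts. LB replicates 2 and 3 were both above the NB libraries in 14, against 22.2% of all transcripts, the exceptions being Acp63F and Sfp26Ad. These 16 are part of the 43 members already counted above. Sfp96F had 14.0, 40.9 and 54.7 CPM in LB-flies, against 29.1 and 27.2 CPM in NB-flies, and Sfp65A had 46.5, 89.6 and 93.9 CPM in LB-flies, against 62.4 and 77.8 CPM in NB-flies. Sfp70A4 had 1.68, 8.63 and 9.90 CPM in LB-flies, against 4.31 and 5.68 CPM in NB-flies. The log2 fold changes of the 16 lay between 0.04 in Acp53C14b and 0.52 in Acp53C14c, which also had the smallest adjusted p, 0.846 in edgeR. Acp53C14c had 1.57, 7.90 and 8.68 CPM in LB-flies, against 3.87 and 4.53 CPM in NB-flies, and Sfp24C1 had 25.7, 49.3 and 60.1 CPM in LB-flies, against 37.3 and 37.8 CPM in NB-flies.

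Without LB replicate 1 nearly all members had fold changes above 0, although none of them passed the adjusted threshold. In this fit of 2 LB against 2 NB libraries edgeR called 0 of the 43 members, and 0.0% of all 16993 transcripts. At an unadjusted p under 0.05 were 27 of the 43 members, all of them higher in LB-flies, against 6.41% of all transcripts higher and 5.4% lower. Of the 26 members of genes with 1 transcript, 22 were among them. The log2 fold change was above 0 in 42 of the 43 members, against 47.2% of all transcripts, and the median was 0.52, against -0.03 for all transcripts. The median standard error of the members was then 0.18. Since the library was singled out after its values were seen, and since the members of 1 gland are not independent of each other, these counts are a description of 4 libraries.

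Examples show the size of these differences. Without LB replicate 1 the log2 fold change of Acp53Ea was 0.69 ± 0.12 (SE), that of Acp26Aa 0.60 ± 0.12 (SE), and that of Acp62F 0.78 ± 0.16 (SE). Sfp79B had the largest value, 1.42 ± 0.28 (SE), and Acp76A had 0.92 ± 0.18 (SE). For Sfp87B, where the test of 5 libraries gave almost no difference, the value was 0.42 ± 0.12 (SE). The adjusted p of each of the 27 members was 0.420 in edgeR. Acp32CD was the only member that stayed below 0, with -0.16 ± 0.14 (SE). Leaving out LB replicate 2 or LB replicate 3 gave 0 members at an unadjusted p under 0.05 in edgeR. The share of all transcripts at that threshold was not determined in these fits, so the 0 has no background beside it.

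**Figure D3:**
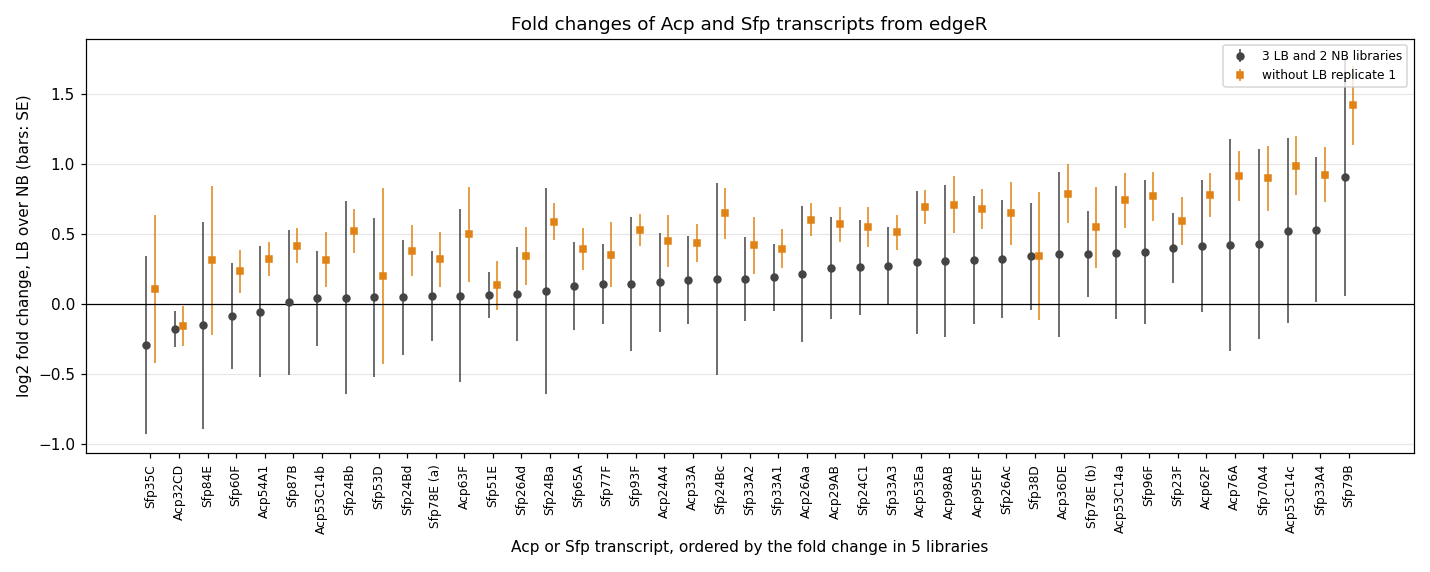
Log2 fold change of LB-flies over NB-flies with its standard error for the 43 tested transcripts, in the fit of 3 LB and 2 NB libraries and in the fit without LB replicate 1. The median is 0.18 with all libraries and 0.52 without LB replicate 1, and the median standard error is 0.47 with all libraries and 0.18 without it.

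Genes of other parts of the male reproductive tract were set beside the members. Among 29 further seminal fluid genes of the accessory gland, which do not carry an Acp or Sfp name, LB replicate 1 was the lowest library in 26 of 30 tested transcripts, against 22.5% of all transcripts. Their summed level relative to the mean of NB-flies was 0.616 in LB replicate 1, 1.28 in LB replicate 2 and 1.38 in LB replicate 3, against 0.446, 1.38 and 1.49 for the Acp and Sfp transcripts. SP, the sex peptide that lowers the receptivity of the mated female, belongs to this list and had 199, 307 and 337 CPM in LB-flies, against 274 and 241 CPM in NB-flies. At an unadjusted p under 0.05 were 0 of the 30 transcripts with all libraries and 12 without LB replicate 1, all higher in LB-flies, against 6.41% of all transcripts higher without that library. In the list for the ejaculatory duct and bulb LB replicate 1 was lowest in 9 of 9 transcripts, with a summed level of 0.406 times the mean of NB-flies, and LB replicates 2 and 3 were at 1.39 and 1.41 times that mean. At an unadjusted p under 0.05 were 0 of these 9 with all libraries, against 7.57% of all transcripts. Without LB replicate 1 there were 3, all higher in LB-flies, against 6.41% of all transcripts higher.

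Transcripts of testis and sperm did not show this dip. LB replicate 1 was the lowest library in 0 of 18 tested transcripts, against 22.5% of all transcripts. The summed levels of the 3 LB libraries were 1.18, 1.25 and 1.26 times the mean of NB-flies. In the test over all libraries 5 of the 18 were higher in LB-flies at an unadjusted p under 0.05, against 3.91% of all transcripts, edgeR called 0, and DESeq2 called 1, Mst84Dc, a gene of the sperm tail. Without LB replicate 1, 7 of the 18 were higher at that unadjusted threshold, against 6.41% of all transcripts. Values above the controls without this library were thus found in testis transcripts too, beside 12 of 30 in the other seminal fluid genes and 27 of 43 in the members. Genes of the secretory pathway in the endoplasmic reticulum, which most secreted proteins pass, were at 0.967, 1.21 and 1.36 times the mean of NB-flies. Of their 21 tested transcripts, 2 were higher in LB-flies at an unadjusted p under 0.05, against 3.91% of all transcripts. Without LB replicate 1 these were 6 higher, against 6.41% of all transcripts, and 1 lower, against 5.4%. The list of regulators of the accessory gland was at 0.775, 0.863 and 0.877 times the mean of NB-flies. With all libraries 0 of its 10 tested transcripts were at that threshold, against 7.57% of all transcripts, and without LB replicate 1 also 0. Its level rests mainly on dve and prd. The tested transcripts of Hr39, Abd-B and lncRNA:iab8 had at most 0.54 CPM and 14 counts in a library, so the list says little about them. Of 14 yolk and eggshell genes, markers of females, 6 were tested. All transcripts of the list together, tested or not, had between 8.26 and 10.7 CPM in LB-flies, against 6.08 and 6.71 CPM in NB-flies, far below the level of the members. Of the 6, 2 were higher in LB-flies at an unadjusted p under 0.05 with all libraries, against 3.91% of all transcripts. Without LB replicate 1 this held for 0 of 5 tested, against 6.41% of all transcripts.

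**Figure D4:**
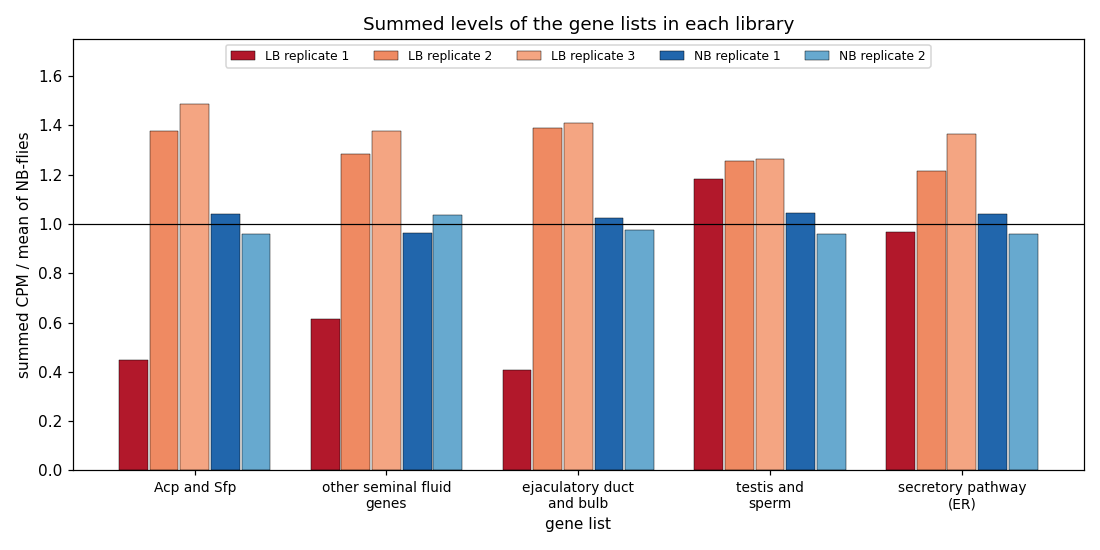
Summed CPM of 5 gene lists in each library, divided by the mean of the 2 NB libraries, with 1 bar for each library and a line at 1. The bar of LB replicate 1 is at 0.446 for the Acp and Sfp transcripts, 0.616 for the other seminal fluid genes, 0.406 for the ejaculatory duct and bulb, and 1.18 for testis and sperm.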

How the data were processed

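Messenger RNA, enriched by its poly(A) tail from total RNA of 5 pools of males, was sequenced, 3 of LB-flies and 2 of NB-flies. Per the labels and the study's methods, the authors trimmed the reads, aligned them to dm6 with HISAT2 and counted them with HTSeq, and deposited whole-number counts for each RefSeq transcript, 1 library to a file, without normalization. Use of the strand in counting and the counting mode are not given in the sources used here. The summary lines of HTSeq were left out.

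Groups were taken from the labels, and symbols and positions from tables of the same genome release. Transcripts whose counts came to 10 or more over the 5 libraries were kept and normalized with TMM, and LB-flies were compared with NB-flies by the quasi-likelihood method in edgeR 4.0.16 (R 4.3.3), with Benjamini-Hochberg adjustment over all transcripts and an FDR of 0.05. Alternatives were DESeq2 1.42.0 (the authors' tool), limma-voom (limma 3.58.1), other size factors and filters, transcripts summed to genes, a replicate block by repeat number or by library name, and each library left out in turn. Each standard error (SE) printed with an edgeR log2 fold change was derived from the test. It is the size of the fold change divided by the square root of the F statistic. Members of genes with 1 transcript were examined apart after the data were seen. Full statistics were given for the 10 members with the highest mean CPM, up to 5 in each direction with the smallest p, those with a studied role, and the 3 with the widest range among those with a mean of at least 100 counts. The members and the comparison lists were chosen with earlier results of these data known. The scripts were tested on simulated counts. Between 23027411 and 26036113 reads were counted in a library, so that counting error was small for most members.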

Additional observations from a re-analysis of the deposited data

How the results depend on the processing

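The number of members called was 0 in every fit, and for all transcripts it was 77 with DESeq2, 5 with the replicate block by repeat number and between 0 and 1 with each library left out in turn (1 without LB replicate 3), against 0 in edgeR with all libraries. The median log2 fold change of the members lay between -0.01 and 0.52 over the fits with a library left out, 0.52 being the value without LB replicate 1, and their summed level between -0.13 and 0.52 on the log2 scale. Depth limits the members with few reads, but 37 of the 43 had a mean of at least 100 counts. The source of the spread between libraries in these 37 was not tested.

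Repeat numbers in the labels and, differently, the numbers in the library names are shared by the groups. The deviations of the libraries from their group means were correlated over 6946 transcripts. This gave -0.23 for LB replicate 1 and NB replicate 1, -0.05 for LB replicate 2 and NB replicate 2, and -0.21 for LB replicate 3 and NB replicate 2. The 2 NB libraries deviate from their mean by equal and opposite amounts. These correlations are therefore not separate checks, and they cannot decide whether the numbers pair the vials. The numbers were not taken as pairs. A replicate block takes the unpaired LB library (LB replicate 3 by repeat number, LB replicate 2 by library name) out of the contrast, and the median of the members was -0.18 with the block by repeat number and -0.11 with the block by library name. Of the named members, the log2 fold change changed sign with the block by repeat number as follows: Sfp87B -0.50, Acp95EF -0.18, Acp53Ea -0.23, Sfp24Bb -0.81, Acp26Aa -0.28, Acp98AB -0.34, Acp62F -0.090, Acp33A -0.081, Sfp79B -0.35, Sfp33A4 -0.048, Acp29AB -0.027, Acp36DE -0.19, Acp76A -0.51, Sfp24Ba -0.84. With the block by library name the values of opposite sign were Sfp87B -0.51, Acp95EF -0.035, Acp53Ea -0.19, Sfp24Bb -0.71, Acp26Aa -0.23, Acp98AB -0.091, Acp33A -0.033, Acp29AB -0.055, Acp36DE -0.26, Acp76A -0.48, Sfp24Ba -0.81. At an unadjusted p under 0.05 in edgeR was 1 member, Sfp84E, with the block by repeat number and 0 with that by library name. Sfp84E rests on 124 counts over all libraries. The share of all transcripts at that threshold was not determined in these fits, so nothing about the members is read from these counts.

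With limma-voom the median of the members was 0.07, and the sign changed in Sfp87B -0.20, Sfp24Bb -0.34, Acp76A -0.057, Sfp24Ba -0.37. With each library left out in turn, the log2 fold changes that crossed 0 ranged over Sfp87B -0.26 to 0.42, Acp95EF -0.027 to 0.68, Sfp24Bb -0.35 to 0.52, Acp26Aa -0.063 to 0.60, Acp98AB -0.15 to 0.71, Acp54A1 -0.32 to 0.32, Acp33A -0.019 to 0.44, Sfp60F -0.39 to 0.23, Sfp35C -0.88 to 0.36, Sfp84E -1.21 to 0.31, Sfp24Ba -0.26 to 0.59. The cause of these sign changes was not tested. Over the named members and all alternatives, 51 values changed sign and 255 did not. The other normalizations, the low-count filters, DESeq2 and the summing of transcripts to genes changed no sign.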

Other observations

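Acp65Aa, the cuticle gene that shares the Acp prefix and was left out of the members, had 155 CPM in LB replicate 1, 497 CPM in LB replicate 2 and 1126 CPM in LB replicate 3, against 906 CPM in NB replicate 1 and 402 CPM in NB replicate 2. It was lowest in LB replicate 1, as most of the members were, but its NB libraries differed from each other far more than those of most members.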
